A study of Homo sapiens with 8 samples.

Results

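The 39 protein-coding HOX genes of the 4 human clusters were examined in 8 RNA-seq libraries of 2D hIECs. Members were taken by symbol, as protein-coding genes named HOX with a cluster letter from A to D and a number, out of 60558 genes. HOXA held 11 members, HOXB 10, HOXC 9 and HOXD 9. The hIECs (human intestinal epithelial cells) had been differentiated from the H9 human embryonic stem cell line, so all values come from 1 line. The 4 groups held 2 libraries each. Normal hIECs received neither agent. Inflamed hIECs received the cytokines IFNγ and TNFα at 50 ng/ml each for 10 days. PM10, airborne particulate matter of the coarse inhalable class, was given at 100 μg/ml over the last 7 days to normal hIECs or to inflamed hIECs, which made the other two groups. The labels do not say whether the 2 libraries of a group came from separate cultures, so every p-value measures only the spread between these libraries, which may be technical.

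HOX genes encode homeodomain transcription factors that give cells an address along the head-to-tail axis. In each cluster the genes lie in the order of their paralogue numbers. Low numbers sit at the 3′ end and are used at the front of the embryo, such as the hindbrain, and high numbers sit at the 5′ end and are used at the back, such as the hindgut and limb ends. Genes of the same number in different clusters are paralogues of a common ancestral gene. Retinoic acid opens the 3′ ends of the clusters, Polycomb complexes keep unused parts silent, and PBX and MEIS proteins bind DNA together with HOX proteins. In the gut, HOX genes are used in both the epithelium and the surrounding mesenchyme, and adult fibroblasts keep a HOX pattern that records their site of origin.

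In GRCh38 the HOXA cluster lies on chromosome 7, HOXB on chromosome 17 from 48528526 to 48728750, HOXC on chromosome 12 from 53938831 to 54056030 and HOXD on chromosome 2 from 176092721 to 176190907. All members of a cluster share 1 strand. By the exons of GENCODE release 44, 20 of the 39 members overlap an antisense gene and 8 overlap another HOX gene (HOXB3, HOXB4, HOXB6, HOXC4, HOXC6, HOXC9, HOXD10 and HOXD11). By the labels the libraries were not strand-specific, so reads of a gene and of its antisense partner cannot be told apart. Values are FPKM, fragments per transcript length and per mapped fragments of the library, so levels of different genes can be compared per length.

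The number of genes above 0 was 18926 and 18037 in normal hIECs, 17806 and 18115 with PM10, 16974 and 17263 in inflamed hIECs and 16587 and 16547 with both agents, and was lower in every library with cytokines than in any without. Mitochondrial genes took 17% and 24.2% of all FPKM in normal hIECs, 20.4% and 20.2% with PM10, 16.9% in each inflamed library and 15.5% and 15.7% with both agents. The part of these shifts in the HOX values was not tested. The read depth is unknown, and the lowest value above 0 ranged from 0.164 to 0.228 FPKM. Of 10 epithelial markers, KRT8 (185 to 383 FPKM) and KRT18 (100.2 to 266 FPKM) were high, whereas EPCAM did not pass 0.622 FPKM, CDH1 was at 0 in 7 libraries and CLDN3, CLDN7 and ESRP1 were at 0 in all 8. Of 10 intestinal epithelial markers, 8 were at 0 throughout, among them CDX2, VIL1, MUC2, LYZ and CHGA, and only LGR5, a receptor of intestinal stem cells, passed 1 FPKM, at 2.01 to 8.28. All 11 mesenchymal markers were detected, and their summed level ran from 2711 to 3618 FPKM, among them VIM (718 to 973 FPKM) and the collagen gene COL1A2 (532 to 807 FPKM). Apart from KRT8, KRT18 and LGR5, the defining markers of the labelled cell type were thus absent or low in these libraries, and the HOX values are those of the cells as sampled.

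All 4 clusters were in use in normal hIECs, from their low to their high paralogue numbers. HOXC10, a factor of the lumbar and hindlimb level, had the highest level of the family at 46.7 and 48.8 FPKM. HOXA10, which acts in the posterior trunk and the uterus, followed at 20.6 and 19.3 FPKM, and HOXB9, HOXD11, HOXD1 and HOXB2 lay between 14.4 and 18.0 FPKM in both libraries. The lowest detected were HOXA7 at 1.21 and 1.09 FPKM and HOXD13 at 0.808 and 0.738 FPKM. HOXA13, HOXB1 and HOXD12 were at 0 in all 8 libraries, and HOXC5 was listed at 0 in both normal libraries. In the HOXA and HOXD clusters detection at 1 FPKM thus ended at number 11, whereas HOXB13, known from prostate and hindgut, stood at 1.59 and 1.47 FPKM and HOXC13, known from hair and nail, at 4.71 and 5.23 FPKM. Set against the 12383 protein-coding genes tested, whose median was 7.13 FPKM in normal hIECs, HOXC10 stood above 90.9% and HOXA10 above 77.7%.

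**Figure D1:**
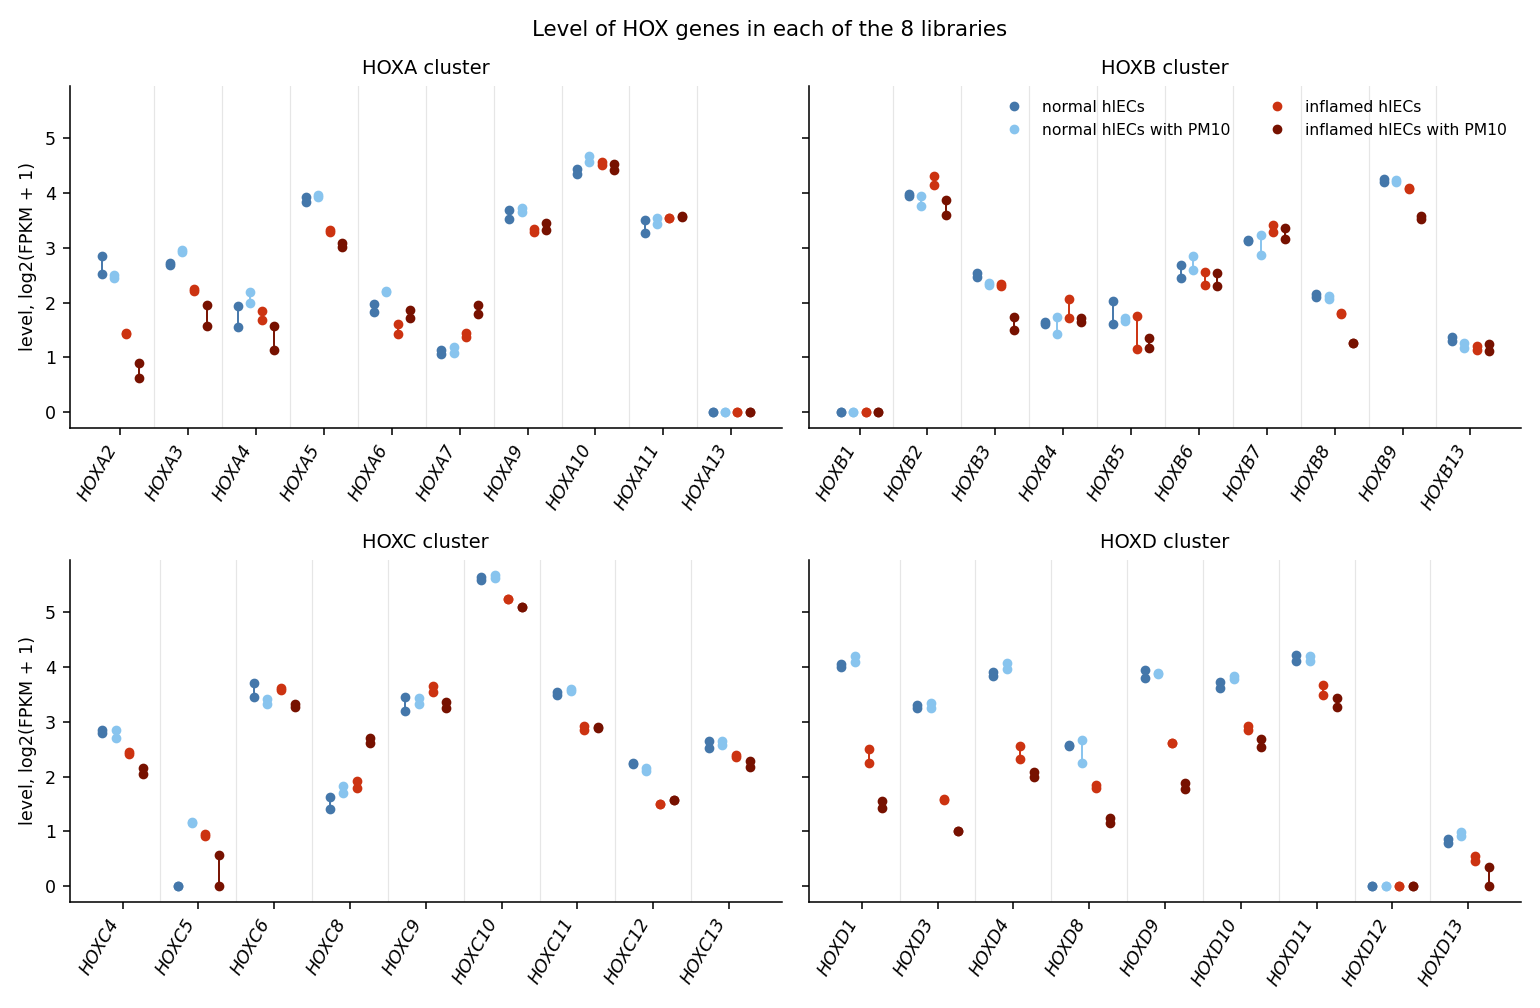
Level of HOX genes as log2(FPKM + 1) in the 8 libraries, by cluster and in order of paralogue number, with 1 dot per library, colours for the 4 groups and a line joining the 2 libraries of a group. The 7 HOXD genes from HOXD1 to HOXD11 sit lower in all 4 libraries with cytokines than in all 4 without, and HOXC10 is the highest gene throughout.

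The summed level of the 39 genes was 309 and 317 FPKM in normal hIECs, 323 and 324 with PM10, 238 and 241 with cytokines and 199.5 and 204 with both agents. The 4 groups did not overlap. Relative to normal hIECs the mean sum was 103% with PM10 alone, 76.5% with cytokines alone and 64.4% with both agents. With FPKM divided by the library median, an alternative added after seeing the data, these were 98.9% ± 5.69, 76.6% ± 4.42 and 64.1% ± 3.84, so that the direction for PM10 alone turned. In RNA from mixed cells, fewer cells that use these genes and less RNA per cell cannot be told apart.

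The loss was uneven among clusters. HOXD summed to 85.4 ± 1.01 FPKM in normal hIECs (mean ± SD of 2 libraries), 36.0 ± 1.39 FPKM with cytokines alone and 24.2 ± 0.861 FPKM with both agents, and the last 2 are 42.1% and 28.4% of the normal sum. HOXA kept 87.8% and 83.2%, HOXC 83.6% and 75.4%, and HOXB 100.5% and 75.2%. HOXB thus matched its normal sum within the spread of the libraries when cytokines were given alone (59.1 ± 1.5 against 59.4 ± 2.58 FPKM) and was lower only with both agents (44.5 ± 1.91 FPKM). These sums over chosen members are descriptions and carry no test.

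By paralogue number, the sum of group 3 in inflamed hIECs was 51.1% of normal, that of group 4 58.0% and that of group 12, which is HOXC12 alone, 49.2%. Groups 2 and 6 stood at 96.9% and 93.5%, groups 5, 8, 9, 10, 11 and 13 between 71.1% and 82.0%, and group 7 at 121%. A split at number 5, chosen after the values were seen, gave 62.2% of normal for the lower numbers and 81.4% for number 5 and above with cytokines alone, and 41.7% and 72.3% with both agents. Within HOXD the same split gave 28.3% and 53.0%, then 15.8% and 38.2%. HOXD made up most of the loss below number 5 with cytokines alone. There it went from 37.6 to 10.6 FPKM, and the whole family from 80.7 to 50.2 FPKM. HOXB went the other way in inflamed hIECs, where its lower numbers stood at 115% and the rest at 92.5%.

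The mean paralogue number weighted by FPKM shows where along the clusters the RNA came from. For HOXD it was 6.67 ± 0.0695 in normal hIECs, 6.59 ± 0.0324 with PM10, 7.87 ± 0.162 with cytokines and 8.44 ± 0.0023 with both agents. For HOXA it moved from 7.25 ± 0.223 to 7.91 ± 0.0729 and 8.18 ± 0.163. HOXB and HOXC moved by less, from 5.99 to 5.67 and 5.80 and from 9.37 to 9.13 and 9.24.

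**Figure D2:**
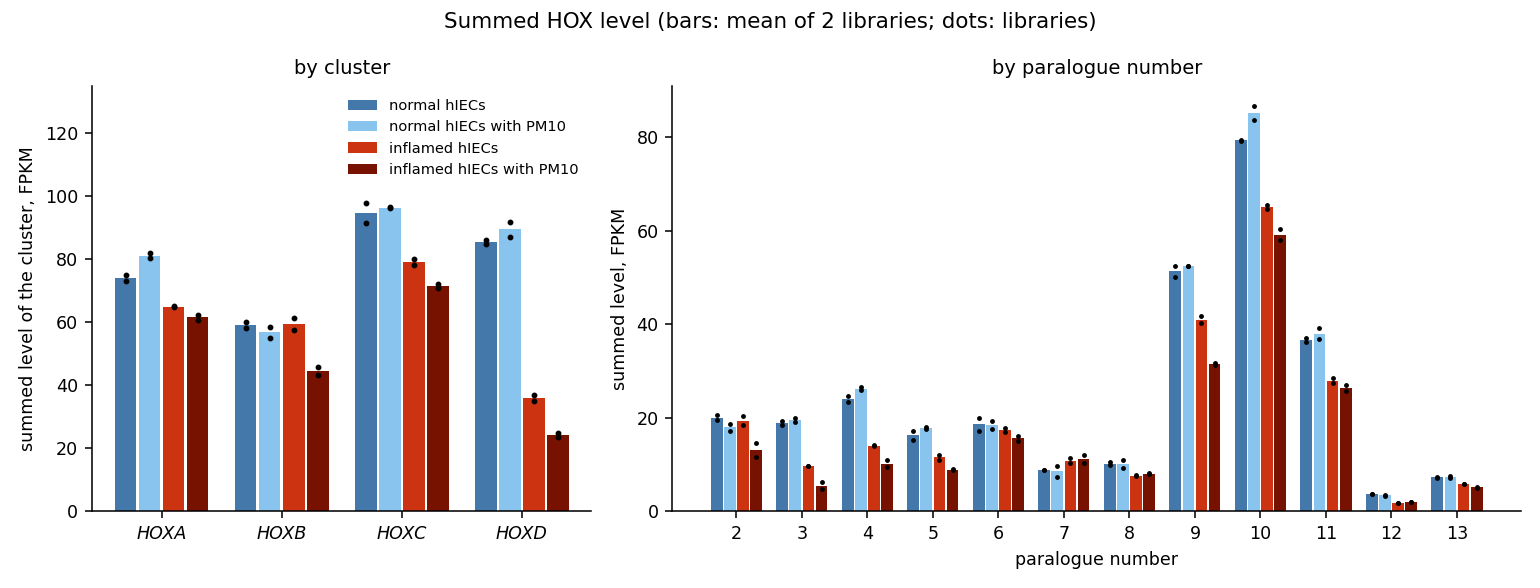
Summed FPKM of each HOX cluster (left) and of each paralogue number from 2 up over the clusters (right) in the 4 groups, as bars for the mean of 2 libraries and dots for the libraries. HOXD drops from 85.4 to 36.0 and 24.2 FPKM on average, while HOXA, HOXB and HOXC keep 75.2% or more of their normal sums.

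Individual genes were compared with limma on log2(FPKM + 1) over the 14206 genes that reached 1 FPKM in 2 or more libraries, and a gene was called at a Benjamini-Hochberg adjusted p under 0.05. Of the 39 members, 35 entered this fit. The comparison of inflamed with normal hIECs asked what the cytokines did on their own. It called 21 of the 35 HOX genes, 17 lower and 4 higher, where limma called 30.3% of all genes lower and 25.9% higher. Against that background 17 of 35 is a larger share and 4 of 35 a smaller one, and neither share was tested. The median HOX change was -0.29 on the log2 scale and that of all genes was -0.03. By cluster, 7 of 7 HOXD genes, 5 of 10 HOXA genes, 4 of 9 HOXC genes and 1 of 9 HOXB genes were lower.

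The comparison of inflamed hIECs with PM10 against normal hIECs with PM10 used the other 4 libraries. It called 25 of 35 HOX genes, 22 lower and 3 higher, against 39.6% lower and 25.8% higher among all genes, with a median of -0.55 for HOX and -0.11 for all genes. The lower calls were 7 of 7 in HOXD, 6 of 10 in HOXA, 6 of 9 in HOXC and 3 of 9 in HOXB. Both comparisons called the same 17 genes lower, and 29 of 35 genes had the same sign in both. Neither count was made over all genes, so no agreement particular to the HOX genes is read from them. A fall of at least 2-fold on this scale was met by 5 HOX genes without PM10 and 8 with PM10, where 5.27% and 7.72% of all genes met it. Across all 8 libraries, 18 of 35 HOX genes were lower in every library with cytokines than in every library without, against 33.1% of all genes, and 2 were higher in every one, against 24.4%.

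**Figure D3:**
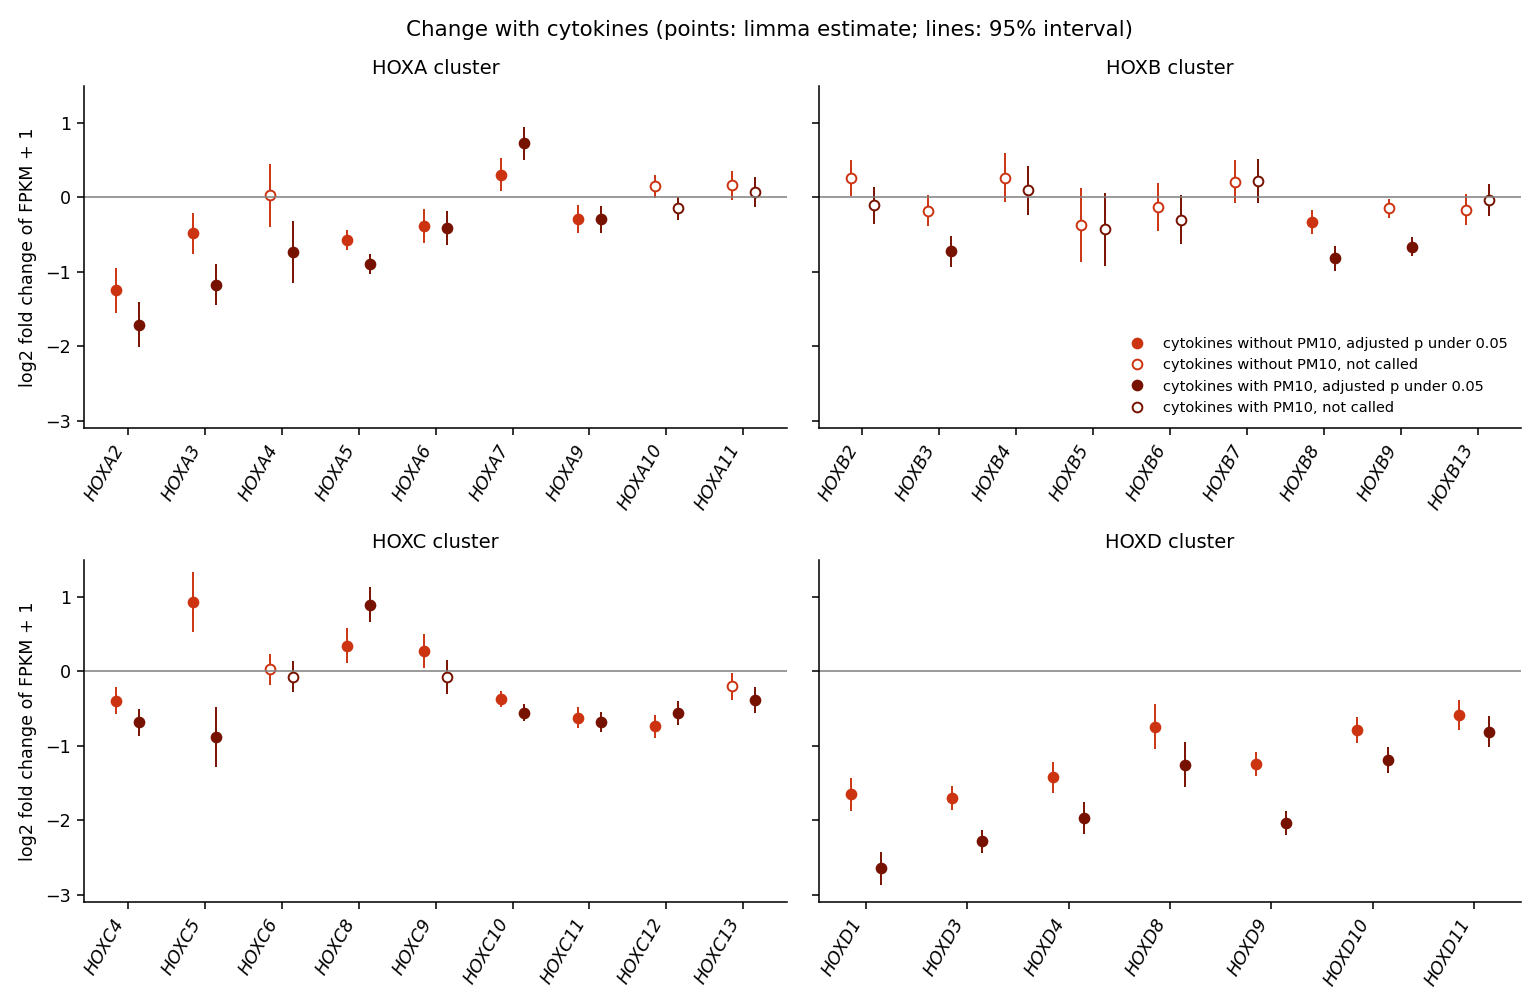
Change with cytokines of tested HOX genes, as the limma log2 fold change of FPKM + 1 with its 95% interval, without PM10 (bright red) and with PM10 (dark red), with filled points for an adjusted p under 0.05. In the HOXD cluster all 14 points are filled and below 0, from -0.59 for HOXD11 to -2.65 for HOXD1.

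HOXD1 and HOXD3 gave the largest falls. HOXD1, the 3′ end gene of its cluster and a factor of the hindbrain and sensory neurons, measured 15.6 and 15 FPKM in normal hIECs, 17.2 and 16 with PM10, 4.64 and 3.77 in inflamed hIECs and 1.68 and 1.95 with both agents. The libraries with cytokines lay below all others, and those with both agents lowest. The mean was 3.64-fold lower in inflamed than in normal hIECs (limma log2 fold change -1.65 ± 0.10 SE, adjusted p = 8.47e-06) and 9.16-fold lower under PM10 (-2.65 ± 0.10, adjusted p = 5.40e-07).

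HOXD3, a factor of the neck vertebrae, measured 8.89 and 8.53 FPKM in normal hIECs, 9.14 and 8.48 with PM10, 1.97 and 2.00 in inflamed hIECs and 1.01 in each library with both agents. Replicates nearly coincided and the groups with cytokines stood far below. The mean was 4.39-fold lower without PM10 (limma log2 fold change -1.70 ± 0.07, adjusted p = 1.20e-06) and 8.72-fold lower with it (-2.29 ± 0.07, adjusted p = 2.27e-07). HOXD1 and HOXD3 overlap exons of the antisense RNA gene HAGLR, which was itself lower with cytokines.

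HOXD4 and HOXD9 have no overlapping exon of another gene. HOXD4, a factor of the neck, measured 13.2 and 13.9 FPKM in normal hIECs, 14.5 and 15.7 with PM10, 3.99 and 4.90 in inflamed hIECs and 2.99 and 3.24 with both agents. Its mean was 3.06-fold and 4.84-fold lower with cytokines. HOXD9, which patterns the lower trunk and the forelimb, measured 12.9 and 14.2, then 13.8 and 13.5, then 5.12 and 5.14, then 2.70 and 2.44 FPKM in the same order of groups. Its mean was 2.64-fold and 5.32-fold lower. Neither gene's groups overlapped between libraries with and without cytokines.

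HOXD8, HOXD10 and HOXD11 fell less. HOXD8, a trunk gene, measured between 3.74 and 5.31 FPKM in the libraries without cytokines and between 1.22 and 2.58 FPKM in those with them. HOXD10, of the hindlimb level, ran from 11.2 to 13.3 FPKM without and from 4.83 to 6.55 FPKM with cytokines. HOXD11, which builds the forearm and the kidney, ran from 16.2 to 17.5 FPKM without and from 8.56 to 11.7 FPKM with cytokines, and was 1.55-fold and 1.84-fold lower. Across the 7 HOXD genes the fall was larger at lower paralogue numbers. As a description over genes that share their libraries, Spearman's rho between paralogue number and log2 fold change was 0.86 without and 0.89 with PM10. In HOXA (10 genes) rho was 0.35 and 0.44, in HOXB (9 genes) -0.30 and -0.03, and in HOXC (9 genes) -0.47 and 0.22. Over all 35 tested HOX genes rho was 0.03 and 0.24. HOXD13, a factor of digits and genital tubercle, was too low to be tested, at 0.738 to 0.999 FPKM without cytokines and 0 to 0.460 FPKM with them.

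The promoters of the members with the largest called change in each comparison are shown because they let the ends of these genes be set side by side. They come from RefSeq on GRCh38.p14, span 250 bases before to 50 after a listed start, and are on the plus strand. HOXD3 had the largest fall with cytokines alone (chr2:176157057-176157356), HOXD1 the largest with both agents, against normal hIECs with PM10 and against inflamed hIECs (chr2:176188418-176188717), and HOXC5 the largest fitted rise with either agent alone (chr12:54016638-54016937). The HOXD3 stretch lies inside the span of the gene in GENCODE release 44, from 176136612 to 176173102, that of HOXD1 spans the start of its gene, which runs from 176188668 to 176190907, and that of HOXC5 is also the one listed for HOXC4, whose gene starts at 54016931. The HOXC5 gene itself runs from 54033050 to 54035361 in that release, so the stretch is not at its start there. HOXC8, with the largest rise with both agents, is named only. Capitals mark 3 motifs searched on both strands, CACGTG (the E-box), CCAAT (read as ATTGG on the other strand) and TAATTA (a homeodomain site).
HOXD3: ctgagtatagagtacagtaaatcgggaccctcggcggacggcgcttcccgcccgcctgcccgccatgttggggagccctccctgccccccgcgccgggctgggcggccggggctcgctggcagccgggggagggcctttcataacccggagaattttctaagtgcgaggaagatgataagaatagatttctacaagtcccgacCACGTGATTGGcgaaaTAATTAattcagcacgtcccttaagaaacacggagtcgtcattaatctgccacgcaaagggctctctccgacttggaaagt
HOXD1: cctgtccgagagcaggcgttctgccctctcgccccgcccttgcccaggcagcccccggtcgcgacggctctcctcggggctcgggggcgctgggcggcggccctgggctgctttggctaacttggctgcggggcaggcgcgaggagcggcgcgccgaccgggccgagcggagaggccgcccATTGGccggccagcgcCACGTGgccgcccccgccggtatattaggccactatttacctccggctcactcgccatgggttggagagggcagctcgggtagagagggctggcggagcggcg
HOXC5: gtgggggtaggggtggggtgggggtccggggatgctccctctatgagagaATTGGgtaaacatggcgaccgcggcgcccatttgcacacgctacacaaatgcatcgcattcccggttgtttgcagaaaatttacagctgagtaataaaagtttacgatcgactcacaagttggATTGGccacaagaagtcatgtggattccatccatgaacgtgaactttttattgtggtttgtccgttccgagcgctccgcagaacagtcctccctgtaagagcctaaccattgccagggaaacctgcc

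Positions here count from a motif's first letter to the start. HOXD3 holds CACGTG at -47, directly followed by an inverted CCAAT at -41, and TAATTA at -31. HOXD1 holds an inverted CCAAT at -69 and CACGTG at -53, and HOXC5 inverted CCAAT motifs at -200 and -77. RefSeq listed 27 promoters for 20 of the 39 members, of which 9 (33.3%) held CACGTG, against 7.26% of all 35116 promoters of this length, 18 (66.7%) held CCAAT, against 34.6%, and 2 (7.41%) held TAATTA, against 4.84%. The interferon-γ activated site, written TTCNNNGAA, and the retinoic acid receptor half-site AGGTCA were in none of the 27, and in 7.66% and 13.8% of all promoters. The other form of that half-site, GGTTCA, was in 2 (7.41%), both of HOXA3, against 8.62% of all. These are counts of letters in short windows, which do not stand for the family evenly. HOXA3 had several windows, and HOXC4 and HOXC5 shared a window that counts under each. HOXB1 was the only HOXB member among them. The HOX windows had a median of 58.0% G and C and 22 CpG, where all promoters had 58.7% and 14.

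In HOXA the largest falls with cytokines on the limma scale were those of HOXA2, HOXA3 and HOXA5, without a clean split by position. HOXA2, a factor of the hindbrain and second pharyngeal arch, measured 4.76 and 6.15 FPKM in normal hIECs, 4.68 and 4.45 with PM10, 1.71 and 1.69 in inflamed hIECs and 0.543 and 0.872 with both agents. It was 3.20-fold lower with cytokines alone (limma log2 fold change -1.25 ± 0.13, adjusted p = 0.000151) and 6.45-fold lower under PM10 (-1.71 ± 0.13, adjusted p = 2.23e-05), with no overlap of groups. HOXA3, which shapes thymus and parathyroid, went from 5.59 and 5.45 FPKM in normal hIECs to 3.61 and 3.73 in inflamed hIECs and from 6.77 and 6.53 with PM10 to 1.97 and 2.88 with both. HOXA5, needed for lung, went from 13.3 and 14.1 to 8.94 and 8.79 FPKM, and from 14.1 and 14.6 to 7.01 and 7.43 FPKM, and was 1.54-fold and 1.98-fold lower.

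HOXA6 and HOXA9, genes of the trunk, were called lower in both comparisons by small amounts, HOXA6 by 1.47-fold and 1.46-fold and HOXA9 by 1.25-fold in each. HOXA4, which overlaps HOXA-AS2 and HOXA-AS3, was lower only under PM10, where it went from 3.56 and 2.97 FPKM to 1.19 and 1.97 FPKM. HOXA10 and HOXA11, the posterior genes of the cluster, were not called in either comparison. HOXA10 ranged from 19.3 to 24.4 FPKM and HOXA11 from 8.63 to 10.9 FPKM over all 8 libraries. The 95% interval of the HOXA11 difference was -0.04 to 0.36 without and -0.12 to 0.27 with PM10 on the log2 scale.

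A few genes of the middle numbers were higher with cytokines. HOXA7, of the thoracic level, measured 1.21 and 1.09, then 1.13 and 1.28, then 1.58 and 1.73, then 2.86 and 2.45 FPKM in the 4 groups, and its rise was called in both comparisons, at 1.44-fold and 2.2-fold.

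HOXC8, also of the thoracic level, had the largest rise on the limma scale among the HOX genes present in every group, with HOXA7 close to it in ratio. It measured 1.65 and 2.08 FPKM in normal hIECs, 2.56 and 2.25 with PM10, 2.47 and 2.77 in inflamed hIECs and 5.53 and 5.13 with both agents. The last group stood apart and the groups in the middle overlapped. The rise was 1.41-fold without PM10 (limma log2 fold change 0.34 ± 0.10, adjusted p = 0.0221) and 2.21-fold with it (0.89 ± 0.10, adjusted p = 0.000177). HOXC9 was called higher with cytokines alone, from 8.11 and 9.91 to 11.5 and 10.7 FPKM, and not under PM10, where it went from 9.83 and 8.96 to 9.18 and 8.48 FPKM. The HOXC9 call was kept under 3 of 16 other settings.

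The other HOXC genes were mostly lower. HOXC10 went from 46.7 and 48.8 to 36.7 and 36.4 FPKM with cytokines alone and from 47.8 and 49.6 to 32.9 and 32.8 FPKM under PM10, a fall of 1.30-fold and 1.48-fold. HOXC11, of the sacral level, went from 10.6 and 10.1 to 6.59 and 6.18 FPKM, and from 11.1 and 10.8 to 6.42 and 6.48 FPKM. HOXC12 went from 3.77 and 3.71 to 1.84 in each library, and from 3.48 and 3.29 to 1.99 in each. HOXC4, a neck gene, was called lower in both comparisons, at 1.39-fold and 1.79-fold, and HOXC13 only under PM10, at 1.38-fold. HOXC6 was called in neither and ran from 8.57 to 12 FPKM.

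HOXC5 gave an on and off pattern that has no fold. It was listed at 0 in both normal libraries, at 1.26 and 1.22 FPKM with PM10, at 0.887 and 0.940 FPKM in inflamed hIECs and at 0.480 and 0 with both agents. A listed 0 can be a failed estimate. It reached 1 FPKM only in normal hIECs with PM10, and entered the fit through these libraries alone. limma called it higher with cytokines alone and lower under PM10, the only HOX gene with opposite calls in the 2 comparisons.

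In HOXB, 6 of 9 tested genes were called in neither comparison. These were HOXB2, HOXB4, HOXB5, HOXB6, HOXB7 and HOXB13. HOXB2, a hindbrain gene, measured 14.7 and 14.4 FPKM in normal hIECs, 12.5 and 14.3 with PM10, 16.7 and 18.7 in inflamed hIECs and 11.1 and 13.7 with both agents. HOXB7, a trunk gene, measured 7.72 and 7.82 FPKM in normal hIECs, 6.27 and 8.37 with PM10, 8.74 and 9.60 in inflamed hIECs and 9.29 and 7.96 with both agents, higher on average with cytokines but not called. HOXB8 was lower in both, from 3.32 and 3.44 to 2.46 and 2.49 FPKM, and from 3.16 and 3.34 to 1.41 in each library. HOXB3 and HOXB9 were lower only under PM10, HOXB3 from 3.99 and 4.13 to 1.82 and 2.32 FPKM and HOXB9 from 17.2 and 17.8 to 11 and 10.4 FPKM.

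With PM10 alone the mean sum of the family was 103% of normal. By cluster it was 109.8% for HOXA, 96.0% for HOXB, 101.7% for HOXC and 104.7% for HOXD. With FPKM divided by the library median, the clusters stood at 105.1%, 91.8%, 97.2% and 100.2% in the same order. In normal hIECs limma called 1 of 35 HOX genes higher, where 5.51% of all genes were called, and 0 lower, where 3.72% were. At an unadjusted p under 0.05 it had 5 members, 4 higher and 1 lower. The share of all genes at that threshold was not counted, so nothing is read from this number. The gene called was HOXC5, which was listed at 0 without PM10. It reached 1 FPKM only in normal hIECs with PM10, and so entered the fit only through the group where it was high. Its call, also under other settings, is therefore no support for a rise. The number called was 1 under each of the 8 other settings and fell to 0 without normal replicate 2, normal PM10 replicate 1 or normal PM10 replicate 2. HOXA10, HOXA6 and HOXC8 had changes of 0.23 ± 0.07, 0.29 ± 0.10 and 0.25 ± 0.10 on the log2 scale and HOXC6 one of -0.21 ± 0.09, none of which was called. The median HOX change was 0.03 and that of all genes 0.06, and the HOX median turned to -0.03 after median centring or quantile normalization.

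In inflamed hIECs, PM10 went with further loss. limma called 14 of 35 HOX genes lower and 2 higher, against 9.02% lower and 6.22% higher among all genes, with a median of -0.26 for HOX and -0.01 for all genes. The lower genes were HOXD1, HOXD3, HOXD4, HOXD8 and HOXD9, then HOXB2, HOXB3, HOXB8 and HOXB9, then HOXA2, HOXA3 and HOXA5, and HOXC4 and HOXC5. HOXD1 fell by 0.88 ± 0.10, HOXD9 by 0.78 ± 0.07 and HOXB3 by 0.71 ± 0.09 on the log2 scale. HOXB9 fell 1.48-fold, from 16 and 15.7 to 11 and 10.4 FPKM, and HOXB8 1.76-fold, from 2.46 and 2.49 to 1.41 in each library. HOXC8 and HOXA7 rose, by 2.03-fold and 1.60-fold. Below number 5, 8 of 11 tested genes were called lower, and from number 5 on 6 of 24 were lower and 2 higher. The number called rests on single libraries. It was 8 without inflamed replicate 1, 7 without inflamed replicate 2 and 8 without inflamed PM10 replicate 1, where limma called 4.75% to 5.17% of all genes. HOXC5 and HOXA3 were called lower under 4 and 6 of 16 other settings. The 7 genes called under every setting were HOXB3, HOXB8, HOXB9, HOXC8, HOXD1, HOXD3 and HOXD9.

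The interaction asked whether the PM10 change differed between inflamed and normal hIECs. limma called 7 of 35 HOX genes, all with the lower change in inflamed hIECs, where 4.48% of all genes were called in that direction and 2.11% in the other. The difference was -0.99 ± 0.13 on the log2 scale for HOXD1 (limma adjusted p = 0.00901), -0.79 ± 0.10 for HOXD9 (0.00693), -0.58 ± 0.10 for HOXD3 (0.0175), -0.55 ± 0.13 for HOXB3 (0.0485), -0.52 ± 0.08 for HOXB9 (0.0118) and -0.49 ± 0.10 for HOXB8 (0.0332). HOXC5 gave -1.81 ± 0.25 (0.00901) with values listed at 0 in normal hIECs. The difference was negative in 29 of the 35 genes (82.9%) and in 61.6% of all genes. Its median was -0.29 for HOX and -0.06 for all genes, and the HOX median was -0.24 after median centring and -0.19 after quantile normalization. The count was lower without normal PM10 replicate 1 or 2, inflamed replicate 1 or 2, or inflamed PM10 replicate 1. The share of all genes called was lower in the same fits. HOXD1 and HOXD9 were called under every setting. So was HOXC5, but it entered the fit only through normal hIECs with PM10, whose libraries also give its difference.

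**Figure D4:**
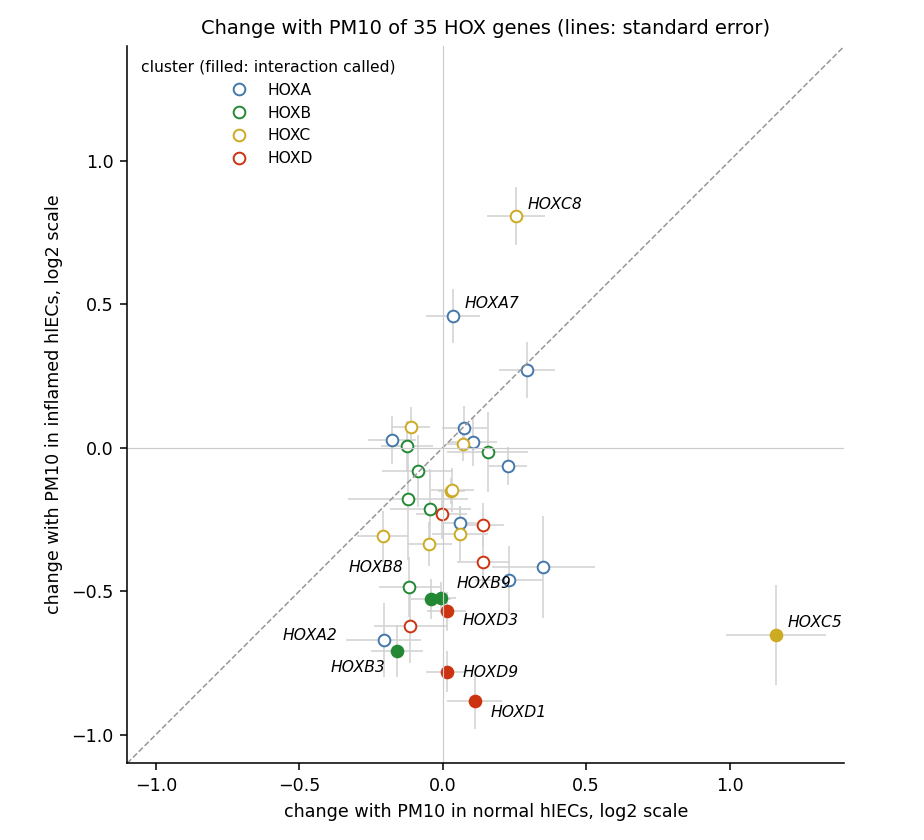
Change with PM10 of the 35 HOX genes on the log2 scale in normal hIECs (horizontal axis) and in inflamed hIECs (vertical axis), with lines for the standard error, colours for clusters, filled points for a called interaction and a dashed line for equal change. HOXD1, HOXD3, HOXD9, HOXB3, HOXB8, HOXB9 and HOXC5 are filled and lie below the line, and 29 of 35 points lie below it.

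Genes of the retinoic acid pathway, which sets up the 3′ ends of HOX clusters in embryos, were lower together with them. Of 15 tested genes of an 18-gene list, limma called 14 (93.3%) lower with cytokines alone and 15 lower under PM10, against 30.3% and 39.6% of all genes, and the medians were -0.83 and -0.99. The 15 include CYP26A1, ALDH1A1 and ALDH1A3, enzymes described below that were listed at 0 in every library with cytokines. They entered the fit only through libraries without cytokines, so their calls are no support for a fall. DHRS3, a retinaldehyde reductase induced by retinoic acid, measured 60.4 and 73.4 FPKM in normal hIECs, 43.1 and 41.8 with PM10, 8.61 and 8.30 in inflamed hIECs and 2.23 and 2.27 with both agents. The 4 groups did not overlap, and its interaction was called at -0.90 ± 0.12 (limma adjusted p = 0.00925). CRABP1, which binds retinoic acid in the cytosol, measured 36.0 and 37.7, then 24.3 and 27.5, then 1.52 and 1.28, then 0 and 0.448 FPKM. RARB, a receptor that is also a retinoic acid target, measured 7.89 and 7.74, then 5.74 and 6.02, then 3.06 and 2.66, then 1.17 and 0.941 FPKM. Its interaction was -0.55 ± 0.12 (limma adjusted p = 0.0421).

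CYP26A1, the enzyme that degrades retinoic acid, was at 2.85 and 2.24 FPKM in normal hIECs, 1.27 and 1.58 with PM10 and listed at 0 in all 4 libraries with cytokines, as were the synthesis enzymes ALDH1A1 and ALDH1A3. CRABP2, the retinol uptake receptor STRA6 and the receptors RARA and RXRB were called lower in both comparisons, with log2 fold changes of -0.33, -0.70, -0.48 and -0.59 without PM10 and -0.56, -0.89, -0.62 and -0.94 with it. With PM10, limma called 5 of the 15 (33.3%) lower in normal hIECs and 7 of the 15 (46.7%) in inflamed hIECs, against 3.72% and 9.02% of all genes. Whether any of these changes bears on the HOX genes was not tested.

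The DNA-binding partners of HOX proteins were also lower. Of 9 PBX, MEIS and PKNOX genes, limma called 7 (77.8%) lower and 1 higher with cytokines alone and 8 (88.9%) lower under PM10. Over all genes 30.3% and 39.6% were lower and 25.9% and 25.8% higher. MEIS3 measured 104 and 120 FPKM in normal hIECs, 100.2 and 99.5 with PM10, 50.3 and 49.9 in inflamed hIECs and 38.8 and 38.4 with both agents. Libraries with cytokines lay below all others, at 2.24-fold and 2.59-fold lower. MEIS1 went from 63.6 and 58.5 to 41.7 and 40.3 FPKM with cytokines alone and from 72.7 and 68.7 to 42.1 and 40.7 FPKM under PM10. MEIS2 and PBX2 were called lower in both, and PBX3 only under PM10.

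Of 18 tested non-coding RNA genes within the clusters, limma called 11 (61.1%) lower with cytokines alone and 12 (66.7%) under PM10, against 30.3% and 39.6% of all genes. HAGLR, antisense to HOXD1 and HOXD3, measured 11.9 and 11.7 FPKM in normal hIECs, 13.3 and 12.5 with PM10, 5.46 and 5.71 in inflamed hIECs and 3.01 and 2.41 with both agents, and its interaction was -0.95 ± 0.12 (limma adjusted p = 0.00748). HOTAIRM1, of the HOXA cluster, fell 1.56-fold and 2.72-fold. HOXA-AS2 fell 2.30-fold and 4.33-fold. HOTAIR, of the HOXC cluster and known as a partner of Polycomb, went from 17.9 and 15.3 to 10.8 and 11.9 FPKM and from 16.1 and 16.4 to 8.62 and 8.16 FPKM. HOXA11-AS, at 4.51 to 5.26 FPKM in all libraries, was not called. HAGLROS, HOXC-AS3, HOXD-AS2 and PRAC2 fell at least 2-fold on the log2 scale in at least 1 comparison, from levels of 3.76 FPKM or less.

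**Figure D5:**
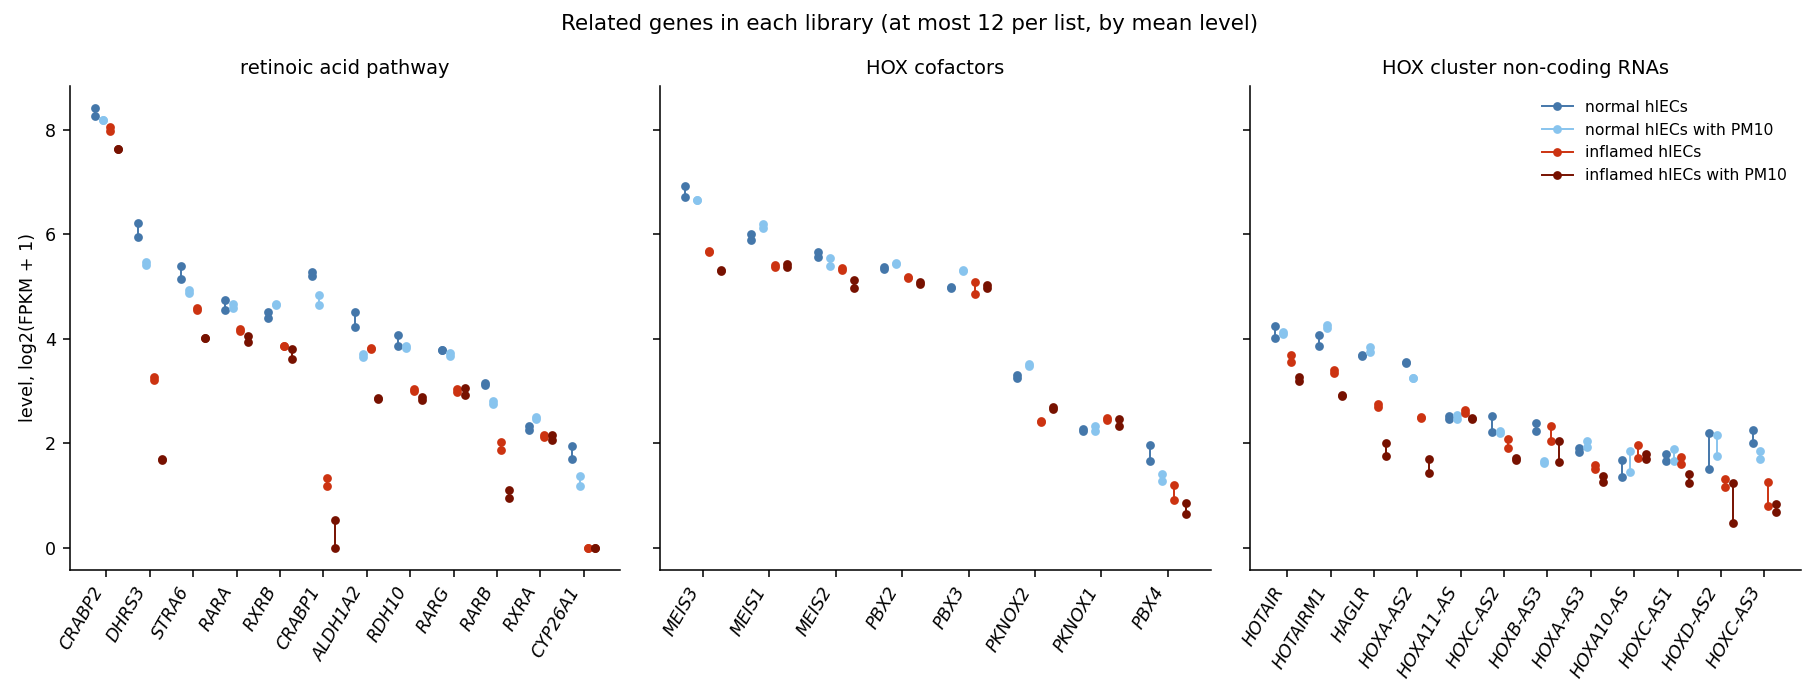
Level as log2(FPKM + 1) in each library of genes of the retinoic acid pathway, of HOX cofactors and of non-coding RNAs within the HOX clusters, at most 12 per list in order of mean level, with dots for libraries and colours for groups. DHRS3, CRABP1, RARB, MEIS3, HAGLR and HOXA-AS2 sit lower in all 4 libraries with cytokines than in the 4 without.

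Of 7 tested genes next to the clusters, limma called 3 (42.9%) higher and 2 (28.6%) lower in each cytokine comparison, against 25.9% and 25.8% higher and 30.3% and 39.6% lower among all genes. With so few genes nothing is read from these shares. LNPK and MTX2 flank HOXD on its 2 sides. LNPK went from 3.37 and 3.40 FPKM to 4.32 and 4.6 with cytokines alone and from 3.52 and 3.30 to 6.09 and 5.63 under PM10, and was called higher, whereas MTX2 went from 33.3 and 35.3 to 25.2 and 25.5 FPKM and from 29.2 and 30.4 to 26.6 and 23.4 FPKM and was called lower. CALCOCO2 next to HOXB was called higher at 0.97 and 0.85 on the log2 scale, HIBADH next to HOXA lower and SKAP2 on its other side higher. SMUG1 and CBX5 next to HOXC were not called.

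Polycomb genes that were called were mostly lower, in shares near those of the HOX genes (48.6% and 62.9% lower). Of 24 tested, limma called 12 (50%) lower and 4 (16.7%) higher with cytokines alone. Under PM10 it called 14 (58.3%) lower and 2 (8.33%) higher. Among all genes 30.3% and 39.6% were lower and 25.9% and 25.8% higher. CBX2 and CBX8, readers of the silencing mark, had log2 fold changes of -1.08 and -0.97 without PM10 and -1.42 and -1.24 with it. The ubiquitin ligase RING1 fell from 43.4 and 46.8 to 23.8 and 25.3 FPKM and from 45.8 and 45.3 to 20.7 and 21.3 FPKM, and EZH1 changed by -0.56 and -1.06. EZH2, the main writer of the mark, ran from 8.29 to 10.3 FPKM and was not called, and SUZ12 was called higher in both comparisons. RBBP7, PCGF2 and PHF1 were called lower in both, RBBP4 only under PM10 and PHC2 higher with cytokines alone. Of 13 Trithorax and H3K27 demethylase genes, 4 (30.8%) were called lower and 2 (15.4%) higher with cytokines alone. Under PM10 6 (46.2%) were lower and 1 (7.69%) higher. The lower shares were near those of all genes (30.3% and 39.6%), and the higher shares were below them (25.9% and 25.8%). Of the most abundant Trithorax and demethylase genes DPY30 and MEN1 were lower in both, PSIP1 only under PM10, and ASH2L, WDR5 and CTCF were not called.

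The position genes of the gut tube proper were scarce. CDX2, CDX4, PDX1, GSX1 and GSX2, the sister cluster genes and intestinal master factors, were at 0 in all 8 libraries and CDX1 did not pass 0.316 FPKM. Of 27 regional gut transcription factors 9 were tested, of which 4 (44.4%) were called lower with cytokines alone and 4 under PM10, and 1 and 2 higher. Over all genes 30.3% and 39.6% were lower and 25.9% and 25.8% higher. OSR1, of the intermediate mesoderm and foregut mesenchyme, measured 15.6 in each normal library, 14.1 and 14.4 with PM10, 2.07 and 2.10 in inflamed hIECs and 0.791 and 1.18 FPKM with both agents. TBX3 rose from 1.09 and 1.02 to 1.96 and 2.03 FPKM, and from 1.09 and 1.14 to 4.64 and 4.75 FPKM, with an interaction of 0.89 ± 0.10 (limma adjusted p = 0.00560). GATA6 was called lower in both comparisons, and BARX1, a stomach mesenchyme factor at 5.02 to 7.27 FPKM, was not called. ONECUT2 was listed at 0 with cytokines. It entered the fit only through libraries without them, so its calls are no support for a fall.

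Of 14 further limb and trunk position genes 7 were tested, and 5 (71.4%) were called lower in each cytokine comparison, against 30.3% and 39.6% of all genes. PRRX1, a mesenchymal limb factor, went from 45.7 and 42.0 FPKM to 55.4 and 53.1 with cytokines alone, where it was called higher, and from 59.4 and 56.7 to 53.1 and 54.9 under PM10, where it was not called. PRRX2, MEOX1, EMX2, MEOX2 and LBX1 were lower in both comparisons, and TBX15 was not called. TBX4 and TBX5, which specify hindlimb and forelimb, were at 0. Among 28 tested homeobox genes outside the HOX clusters, chosen by symbol, 19 (67.9%) were called lower and 2 (7.14%) higher with cytokines alone. Under PM10 22 (78.6%) were lower and 2 (7.14%) higher. Over all genes 30.3% and 39.6% were lower and 25.9% and 25.8% higher. The medians of these homeobox genes were -0.65 and -0.74. The HOX medians of -0.29 and -0.55 lay above these. BARX2 changed by -2.70 and -3.75 on the log2 scale, and DLX3, SIX2, EMX2 and ONECUT2 fell at least 2-fold in both comparisons.

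Markers of other cell types moved with the cytokines as well. Of 11 mesenchymal markers, limma called 6 lower and 3 higher with cytokines alone and 6 lower and 4 higher under PM10. Over all genes 30.3% and 39.6% were lower and 25.9% and 25.8% higher. COL3A1, PDGFRA, TWIST1, COL1A2 and PDGFRB were lower in both, and LUM, THY1 and COL1A1 higher in both. LGR5 was also higher in both, from 2.63 and 2.01 to 5.68 and 5.26 FPKM and from 2.33 and 2.31 to 8.28 and 7.92 FPKM. Smooth muscle markers summed to 1573 and 1699 FPKM in normal hIECs and to 2441 and 2478 in inflamed hIECs, while the epithelial sum, nearly all KRT8 and KRT18, was 641 and 652 FPKM and then 347 and 352 FPKM. Neuronal markers summed to 179 and 186 FPKM in normal and to 106 and 107 FPKM in inflamed hIECs, with ELAVL4 and SOX10 at 0. With PM10 and with both agents, the mesenchymal sums were 3218 to 3221 and 2711 to 2750 FPKM, the smooth muscle sums 1287 to 1312 and 2470 to 2493 FPKM, and the epithelial sums 598 to 636 and 287 to 305 FPKM. The 3 endothelial markers and CD3E were at 0, and the pluripotency genes POU5F1, NANOG and LIN28A were at 0 in all libraries. SOX2 was at 0.714 to 0.884 FPKM in the libraries without cytokines and at 0 in those with them. The macrophage marker CD68 was at 0.399 and 0.333 FPKM in inflamed hIECs and 1.11 and 1.83 with both agents, and PTPRC was at 0 with cytokines. CD68 had a called rise, with an interaction of 1.24 on the log2 scale. It entered the fit only through the group with both agents, where it was high. These calls are therefore no support for a rise. The part of these shifts in the HOX values was not tested.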

How the data were processed

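RNA was sequenced from 8 libraries of 2D hIECs (4 groups, 2 libraries each, grouped by the labels). Per the labels and the methods of the study, the authors trimmed reads with cutadapt, aligned them with HISAT2 to the human genome and estimated 1 FPKM value per gene and library with StringTie. The deposited FPKM values are normalized for length and depth, so the read depth and any counting error are unknown, and 2 libraries per group limit the precision. Adapter and quality trimming and the sharing of reads among overlapping transcripts can change values of low and overlapping genes.

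FPKM values were taken as log2(FPKM + 1) and fitted in limma 3.58.1 under R 4.3.3, letting the variance depend on the mean, over the 4 groups and the 14206 genes that reached 1 FPKM in 2 or more libraries. Fold changes on this scale understate changes of low genes, and folds given as ratios are ratios of mean FPKM. The 5 contrasts were each adjusted by the Benjamini-Hochberg method (adjusted p under 0.05). The fit was tested on simulated data with known changes. Gene positions came from GENCODE release 44 on GRCh38, in which 99.51% of gene IDs were found. The annotation release behind the FPKM values is not given in the sources used here. The members and gene lists were chosen with earlier results of these data known. From each list, at most 6 genes by mean level and those with a 2-fold change were named. The alternatives were a pseudocount of 0.1, other filters, scalings and fits, a replicate block and each library left out. A few genes are not reported here, in text or figures, and remain in the counts and sums.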

Additional observations from a re-analysis of the deposited data

Results flagged for a closer look

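The effect of PM10 differed between inflamed and normal hIECs for 7 HOX genes by the interaction term of the limma fit, and in each the change was the lower one in inflamed hIECs. The difference on the log2(FPKM + 1) scale was -0.99 for HOXD1, -0.79 for HOXD9 and -0.58 for HOXD3 in the HOXD cluster, -0.55 for HOXB3, -0.49 for HOXB8 and -0.52 for HOXB9 in the HOXB cluster, and -1.81 for HOXC5. HOXC5 was listed at 0 in both normal libraries and entered the fit only through normal hIECs with PM10, where it was high. Of the 15 other settings, HOXB3 was called under 2, HOXB8 under 7, HOXD3 under 9 and HOXB9 under 10, and HOXD1, HOXD9 and HOXC5 under all 15. Groups of 2 libraries do not allow a search for single libraries that stand apart.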

How the results depend on the processing

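Over the 8 other settings the number of HOX genes called was 20 to 22 for cytokines without PM10, 25 to 26 for cytokines with PM10, 12 to 17 for PM10 in inflamed hIECs and 1 throughout for PM10 in normal hIECs, and over the 7 that apply it was 5 to 9 for the interaction. With each library left out in turn the ranges were 17 to 21, 24 to 26, 7 to 18, 0 to 2 and 3 to 7. The cause of these shifts was not tested. Of the called values of single genes, 997 kept direction and call under the alternatives, 116 kept the direction without the call, and 0 reversed. Calls held under every setting for 22 of 25 genes for cytokines with PM10, 15 of 21 without PM10, 7 of 16 for PM10 in inflamed hIECs and 3 of 7 for the interaction. Libraries of the same replicate number showed no clear shared shift, with correlations of deviations between groups of -0.0015 to 0.079 over 14206 genes. These values cannot show whether the samples were paired. With the replicate block, limma called 1, 22, 15, 26 and 6 HOX genes for PM10 in normal hIECs, cytokines without PM10, PM10 in inflamed hIECs, cytokines with PM10 and the interaction. Without members under 1 FPKM in every library, the HOX sum with PM10 alone was 323 FPKM and the weighted paralogue number 7.51, and that of HOXD was 6.52 with PM10 alone and 8.42 with both agents. In a fit of the compared groups alone, PM10 in normal hIECs called 0.162% of all genes. The median of all genes under cytokines with PM10 was -0.11 in the reported fit, -0.06 after median centring and -0.02 after quantile normalization, and the HOX median was -0.55, -0.50 and -0.54. The unknown depth leaves HOXC5, HOXD13 and other values near 1 FPKM without a counting error.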
